A study of Mus musculus with 4 samples.

Results

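The microRNAs (miRNAs) of the Hox gene clusters described here are 6 mature arms: mmu-miR-10a-5p, mmu-miR-10a-3p, mmu-miR-10b-5p, mmu-miR-10b-3p, mmu-miR-196a-5p and mmu-miR-196b-5p (written without the mouse prefix from here on). They were chosen because miR-10a-5p nearly vanished in retinas without Ptf1a function, to see whether its paralogs in the other Hox clusters did the same. Of the 6, 5 had a row among the 1326 miRNAs of the deposited count table, and miR-10b-3p was not analysed here. The series holds 4 small RNA libraries of whole mouse retina at E18.5, late in embryonic life: 2 from Ptf1a+/- embryos, which keep 1 functional copy of the gene, and 2 from Ptf1a-/- embryos, which have none. Every library thus carries at least 1 mutant Ptf1a allele, and no wild-type retina was used here. Ptf1a encodes a transcription factor that retinal progenitors need in order to make amacrine and horizontal cells. For the mutant allele, the strain and the number of embryos behind each library, details were not given in the sources used here.

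Hox genes encode transcription factors that give segments along the head-to-tail axis their identity. They are active in hindbrain, spinal cord and trunk and are largely silent in forebrain-derived tissue, to which the neural retina belongs. Several miRNA genes lie between the Hox genes and are commonly transcribed with their neighbours: Mir10a and Mir10b beside the group 4 genes, and the Mir196 genes near the group 9 genes. miR-196 is known for cleaving Hoxb8 mRNA, and miR-10 for acting on Hox mRNAs and on a wide set of other transcripts. From each hairpin precursor 1 arm, here the 5p arm, is usually kept and loaded into Argonaute, while the other is degraded.

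The 4 mature 5p arms fall into a pair of families that each share a seed, the stretch of bases 2 to 8 that selects targets. They are shown with the seed in capitals (RefSeq, GRCm38.p6).
miR-10a-5p: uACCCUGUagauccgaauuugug
miR-10b-5p: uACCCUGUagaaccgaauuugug
miR-196a-5p: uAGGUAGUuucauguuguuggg
miR-196b-5p: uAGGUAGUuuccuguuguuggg
Within each family the members differ by 1 base outside the seed, U12A from miR-10a-5p to miR-10b-5p and A12C from miR-196a-5p to miR-196b-5p, counted from 1 at the 5′ end. Among 1679 mouse mature miRNA names in RefSeq, no other shared either seed, and none but the partner lay within 2 mismatches over the first 18 bases. All counts of the members were whole numbers, while some other rows hold fractions, as for miR-99a-5p and miR-100-5p. Rows that share reads can also hold whole counts, so this does not show whether reads were shared between members. A rule for reads ending before base 12 was not given in the sources used here.

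Precursors of the miR-10 pair are shown to place the mature arms in their hairpins (capitals mark the 5p and 3p arms).
Mir10a: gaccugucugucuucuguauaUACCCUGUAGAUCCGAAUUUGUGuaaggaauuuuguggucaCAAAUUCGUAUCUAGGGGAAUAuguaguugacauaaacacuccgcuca
Mir10b: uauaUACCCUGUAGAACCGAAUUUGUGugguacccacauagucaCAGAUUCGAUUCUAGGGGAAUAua
Mir10a lies at chr11:96317165-96317274 (GRCm38, plus strand), 992 bases before Hoxb4 and 11043 bases after Hoxb5, inside no other annotated gene. Mir10b lies at chr2:74726070-74726137 (plus strand), in an intron shared by Hoxd3 and Hoxd4 transcripts. miR-196a-5p has a pair of source genes with the same mature sequence: Mir196a-1, at chr11:96265164-96265265 and 6191 bases before Hoxb9, and Mir196a-2, at chr15:102973350-102973434 between Hoxc10 and Hoxc9 in an intron of a long Hoxc5 transcript. Reads of the 5p arm cannot be assigned to 1 of these, and the 3p arms that would separate them were not analysed here. Mir196b lies at chr6:52230081-52230165 (minus strand), overlapping an exon of a Hoxa9 transcript. The members thus come from all 4 Hox clusters on 4 chromosomes.

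**Figure D1:**
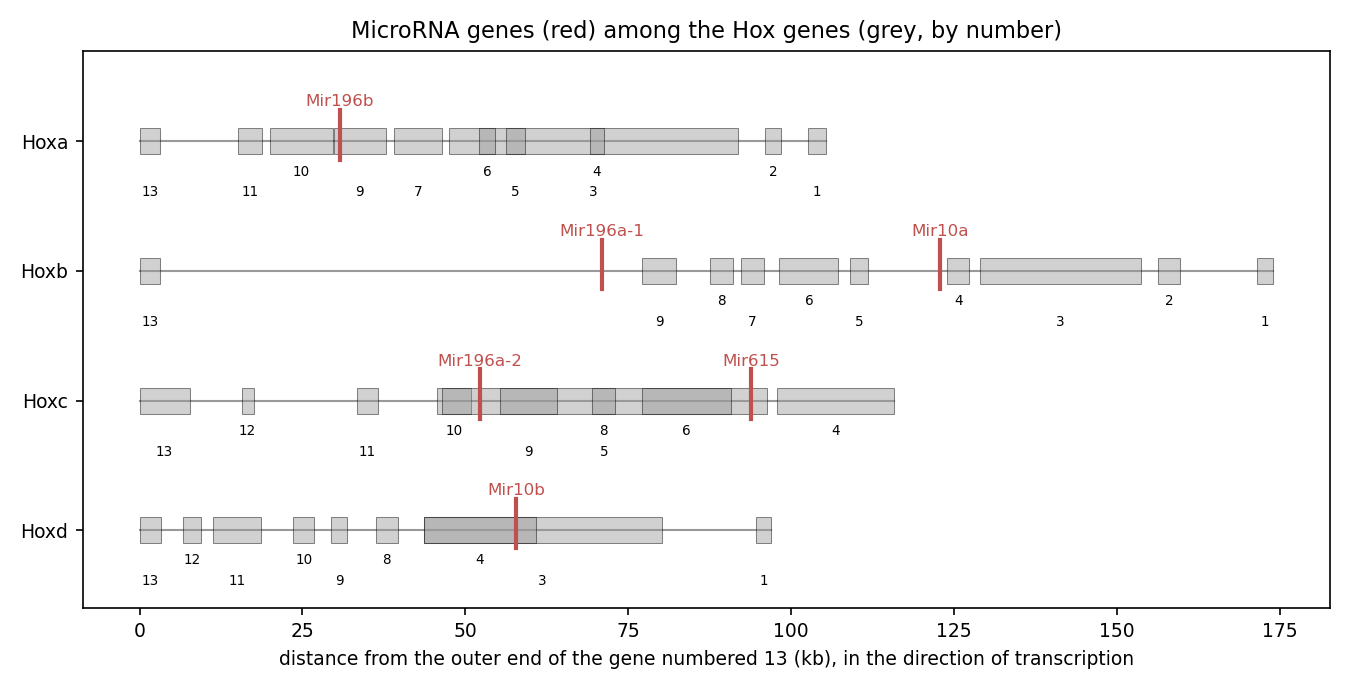
Positions of the miRNA genes (red marks) in the 4 mouse Hox clusters; the x axis is the distance in kb from the outer end of the gene numbered 13, and grey boxes are annotated Hox genes with their numbers. Mir10a and Mir10b sit at the group 4 genes of Hoxb and Hoxd, and the Mir196 genes near or overlapping the group 9 genes of Hoxa, Hoxb and Hoxc.

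Library totals ranged from 3647145 to 4385834 counts. Levels are given as CPM, counts scaled to a common library total, with TMM, a method that corrects for differences in library composition, and 3 counts, the limit that a count of 0 allows, correspond to 0.638 to 0.923 CPM. The Ptf1a+/- libraries lay close together (chi-square per degree of freedom 1.85 over 579 miRNAs with 20 or more summed counts) and the Ptf1a-/- libraries far apart (120.1 over 555). Whether libraries came from separate animals is not in the labels, so every SD, SE and p here describes these libraries alone, and that spread may be technical. Retinal miRNAs dominated all 4, with miR-182-5p, miR-183-5p, miR-96-5p, miR-124-3p and miR-9-5p together at 336990 to 517788 CPM.

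The Hox-cluster miRNAs were scarce in Ptf1a+/- retina and still scarcer in Ptf1a-/- retina. Summed over the 5 listed members, the Ptf1a+/- libraries had 67 and 81 counts, the Ptf1a-/- libraries 1 and 6. This is a level of 17.3 ± 0.0527 CPM in Ptf1a+/- (mean ± SD, n = 2) and 1.05 ± 1.12 CPM in Ptf1a-/-, and the ratio of the summed counts was 0.0569 (95% counting interval 0.0225 to 0.120). Without miR-10a-5p, the other listed members summed to 30 and 27 counts against 1 and 4, a ratio of 0.106 (0.0330 to 0.261), and 1 of the 30 counts was of miR-10a-3p, from the same gene. Intervals here and below are exact (Clopper-Pearson on the summed counts of a genotype) and cover counting error only. Since the members were chosen on this contrast, their values are a description, and nothing is supported with a call of the fit over all miRNAs where one is given.

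For miR-10a-5p, the Hoxb member, 37 and 54 counts were listed in Ptf1a+/- and 0 and 2 in Ptf1a-/-. Its level was 9.55 and 11.5 CPM in Ptf1a+/- replicates 1 and 2, and 0 and 0.616 CPM in Ptf1a-/- replicates 1 and 2. Both Ptf1a-/- values lie under the level that 3 counts give in the same libraries, so no amount can be read from them beyond a few reads. The fitted log2 fold change was -5.08 ± 0.68 (SE).

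miR-10b-5p, its seed partner from the Hoxd cluster, had 9 and 10 counts in Ptf1a+/- and 1 and 2 in Ptf1a-/-. These counts are 2.32 and 2.13 CPM against 0.258 and 0.616 CPM, a ratio of 0.190 (0.0360 to 0.646). The genotypes did not overlap, and the point estimate was the highest of the 4 5p arms, though its interval overlaps those of the others. With so few reads, whether miR-10b-5p was lowered as much as miR-10a-5p was not detectable at this depth.

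miR-196a-5p had 13 and 10 counts in Ptf1a+/- and 0 and 2 in Ptf1a-/-, or 3.36 and 2.13 CPM against 0 and 0.616 CPM. The ratio was 0.105 (0.0120 to 0.424) and the fitted log2 fold change -3.12 ± 0.87. miR-196b-5p, from the Hoxa cluster, had 7 counts in each Ptf1a+/- library and 0 in each Ptf1a-/- library. Its level of 1.65 ± 0.225 CPM in Ptf1a+/- was at least 3.88-fold higher than in Ptf1a-/- when 3 counts over the Ptf1a-/- pair are taken as the floor. The exact interval, which also takes in the counting error of the 14 Ptf1a+/- counts, is wider and allows a ratio of up to 0.363. miR-10a-3p, the arm usually degraded, had 1 count in Ptf1a+/- replicate 1 and 0 elsewhere, too few for a comparison.

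**Figure D2:**
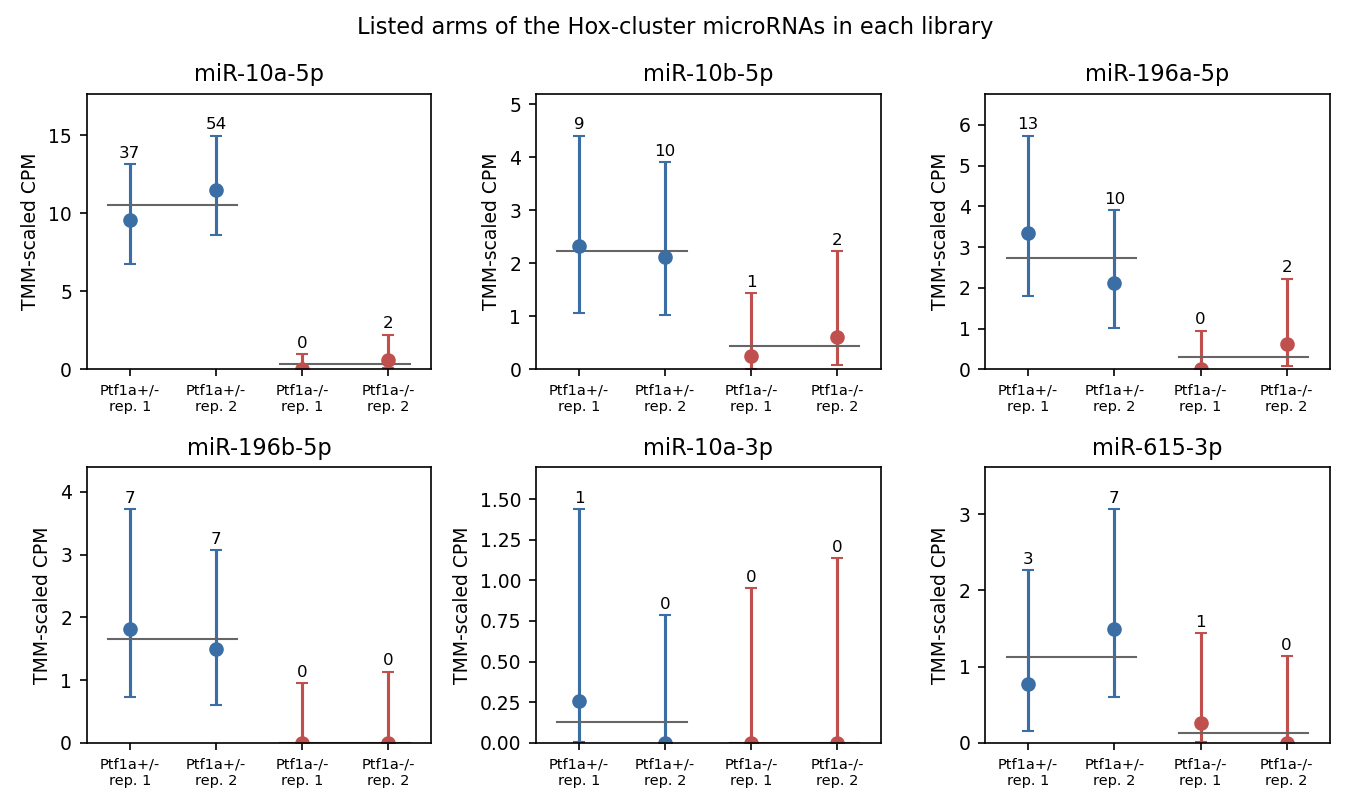
TMM-scaled CPM of each listed arm in the 4 libraries (points, with exact 95% counting intervals as bars and the raw count above each; horizontal lines are genotype means, n = 2). miR-10a-5p, miR-10b-5p, miR-196a-5p, miR-196b-5p and miR-615-3p lie lower in both Ptf1a-/- libraries than in both Ptf1a+/- libraries, on counts of 0 to 2.

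For 4 of the 5 listed members, all but miR-10a-3p, both Ptf1a-/- libraries lay below both Ptf1a+/- libraries. The same held for 22.5% of the 1265 miRNAs with a count in any library. Only miR-10a-5p and miR-196a-5p reached 10 counts in 2 libraries and entered the fit over all miRNAs, and both did so through the Ptf1a+/- libraries, where they were high. Of these, miR-10a-5p was called lower by edgeR's quasi-likelihood test (threshold of 0.05 on the adjusted p), as were 3.60% of the 584 miRNAs tested. Neither was called higher, as were 6.16%. Nothing is read from these counts, because the choice of members used the same contrast. Neither was called with the Ptf1a+/- pair summed into 1 library or without Ptf1a+/- replicate 2. Both were called without Ptf1a-/- replicate 1, without Ptf1a-/- replicate 2 and on the deposited CPM.

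In Ptf1a+/- retina the members differed in level. miR-10a-5p was the most abundant, with 10.5 ± 1.36 CPM and rank 407 of 1326 listed miRNAs. miR-196a-5p (2.74 ± 0.870 CPM), miR-10b-5p (2.23 ± 0.140) and miR-196b-5p (1.65 ± 0.225) followed at ranks 564, 582 and 620, and the counting intervals of these 3 overlapped in each Ptf1a+/- library, while that of miR-10a-5p lay above all 3. Adapter ligation and PCR favour some sequences, so this order is less certain than a comparison of 1 arm between libraries. Within the miR-10 seed family, miR-10a-5p made up 80.4% of 46 counts in Ptf1a+/- replicate 1 (exact 95% interval 66.1 to 90.6%) and 84.4% of 64 in replicate 2 (73.1 to 92.2%). It made up 0 of 1 count and 2 of 4 counts in the Ptf1a-/- libraries, too few to show whether that share differed. Within the miR-196 family, miR-196a-5p made up 65% of 20 counts (40.8 to 84.6%) and 58.8% of 17 (32.9 to 81.6%). The Hoxb cluster encodes miR-10a and 1 of the miR-196a genes.

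The sequences behind the counts could be read from a further deposited table, which gives, in DNA letters, the sequence seen most often for a miRNA in a library. This measure was not used to choose the members. In both Ptf1a+/- libraries each 5p arm was led by a sequence that starts at the RefSeq 5′ end and holds no changed base. miR-10a-5p and miR-10b-5p were 1 base shorter than the RefSeq entry at the 3′ end, in these and in 2 of the 3 Ptf1a-/- entries. The sequences below are given with bases 2 to 8 in capitals.
miR-10a-5p, Ptf1a+/- replicates 1 and 2 and Ptf1a-/- replicate 2: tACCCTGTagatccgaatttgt
miR-10b-5p, Ptf1a+/- replicates 1 and 2 and Ptf1a-/- replicate 1: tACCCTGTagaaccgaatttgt
miR-10b-5p, Ptf1a-/- replicate 2: ACCCTGTagaaccgaatttgta
miR-196a-5p, Ptf1a+/- replicates 1 and 2: tAGGTAGTttcatgttgttggg
miR-196a-5p, Ptf1a-/- replicate 2: tAGGTAGTttcatgttgtc
miR-196b-5p, Ptf1a+/- replicates 1 and 2: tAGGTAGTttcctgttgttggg
In Ptf1a-/- replicate 2, miR-10b-5p was led by a sequence without its first base and with G23A, and miR-196a-5p by one of 19 bases with T19C, each on 2 counts in all. Part of the few Ptf1a-/- counts of these rows therefore rests on reads that differ from the reference sequence. The 2 counts of miR-10a-5p in that library were led by the sequence seen in Ptf1a+/-. The single miR-10a-3p count carried T21A.

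Beyond these arms, GENCODE M21 places 1 further named miRNA gene, Mir615, in the Hox clusters (chr15:103014910-103015001, in an intron of a long Hoxc5 transcript), beside the unnamed prediction Gm44463 in Hoxd. Of the 5 other arms of these genes in the list, 1 had a row in the count table, and 4 (miR-615-5p, miR-196a-1-3p, miR-196a-2-3p and miR-196b-3p) were not analysed here. miR-615-3p had 3 and 7 counts in Ptf1a+/- and 1 and 0 in Ptf1a-/-, a ratio of 0.120 (0.00277 to 0.846). It did not reach the count minimum of the main fit. In the edgeR fit with no filter on low counts it was not called (-2.80 ± 1.11 on the log2 scale, adjusted p = 0.327). The most frequent sequence in the Ptf1a-/- library with 1 count carried G12A, while both Ptf1a+/- libraries had the reference bases. Of the 6 listed Hox-cluster arms, 6 and 5 had a count in Ptf1a+/- replicates 1 and 2, against 2 and 3 in Ptf1a-/- replicates 1 and 2. Summed, they had 70 and 88 counts against 2 and 6. Over all 1326 listed miRNAs, 1019 and 1070 had a count in Ptf1a+/- replicates 1 and 2, against 1015 and 970 in Ptf1a-/-. All of the 6 arms but miR-615-3p were chosen on this contrast, so nothing is read from their counts.

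The miR-99 and miR-100 family is the nearest relative of miR-10 in sequence and lies outside the Hox clusters. Its members are shown to place them against the miR-10 sequences above (RefSeq, seed in capitals).
miR-99a-5p: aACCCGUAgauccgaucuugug
miR-99b-5p: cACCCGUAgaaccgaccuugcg
miR-100-5p: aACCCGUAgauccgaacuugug
miR-100-5p and miR-10a-5p share a run of 11 bases, GUAGAUCCGAA, which starts at base 7 of miR-10a-5p and at base 6 of miR-100-5p, so their seeds differ. These miRNAs, which are encoded beside let-7 and miR-125 genes, were abundant in the retina. The 6 listed arms summed to 24462 ± 131 CPM in Ptf1a+/- and 25333 ± 3453 CPM in Ptf1a-/- (n = 2 each), a ratio of 1.03.

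Of the 6 arms, 4 were tested and none passed in either direction (edgeR quasi-likelihood test, Benjamini-Hochberg over 584 miRNAs; 1 had an unadjusted p under 0.05, and DESeq2 called 0 of the 4), beside 9.76% called among all miRNAs. miR-100-5p stood at 681 and 688 CPM in Ptf1a+/- and 540 and 545 CPM in Ptf1a-/-, a log2 fold change of -0.34 ± 0.10 (adjusted p = 0.102 in the edgeR fit). Its genotypes did not overlap, and neither did those of miR-99a-5p, as for 31.5% of the tested miRNAs in this direction. miR-99a-5p stood at 6576 and 6642 CPM against 5257 and 6041 CPM (-0.23 ± 0.12, adjusted p = 0.318). miR-99b-5p stood at 16241 and 16383 CPM against 16130 and 20144 CPM (0.15 ± 0.15, adjusted p = 0.581). miR-99b-3p stood at 869 and 841 CPM against 964 and 1045 CPM, without overlap in the opposite direction (0.23 ± 0.11, adjusted p = 0.244). The median of the 4 was -0.04, against -0.0031 for all 584. Without Ptf1a-/- replicate 1 all 4 passed, and without Ptf1a-/- replicate 2 there were 3, the spread in these fits being estimated from the Ptf1a+/- pair alone. With library size as the only scaling, a change that moved the median of all miRNAs to -0.18, miR-99b-5p stood at -0.043, and on the deposited CPM (median -0.33) miR-99b-5p and miR-99b-3p stood at -0.20 and -0.11.

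**Figure D3:**
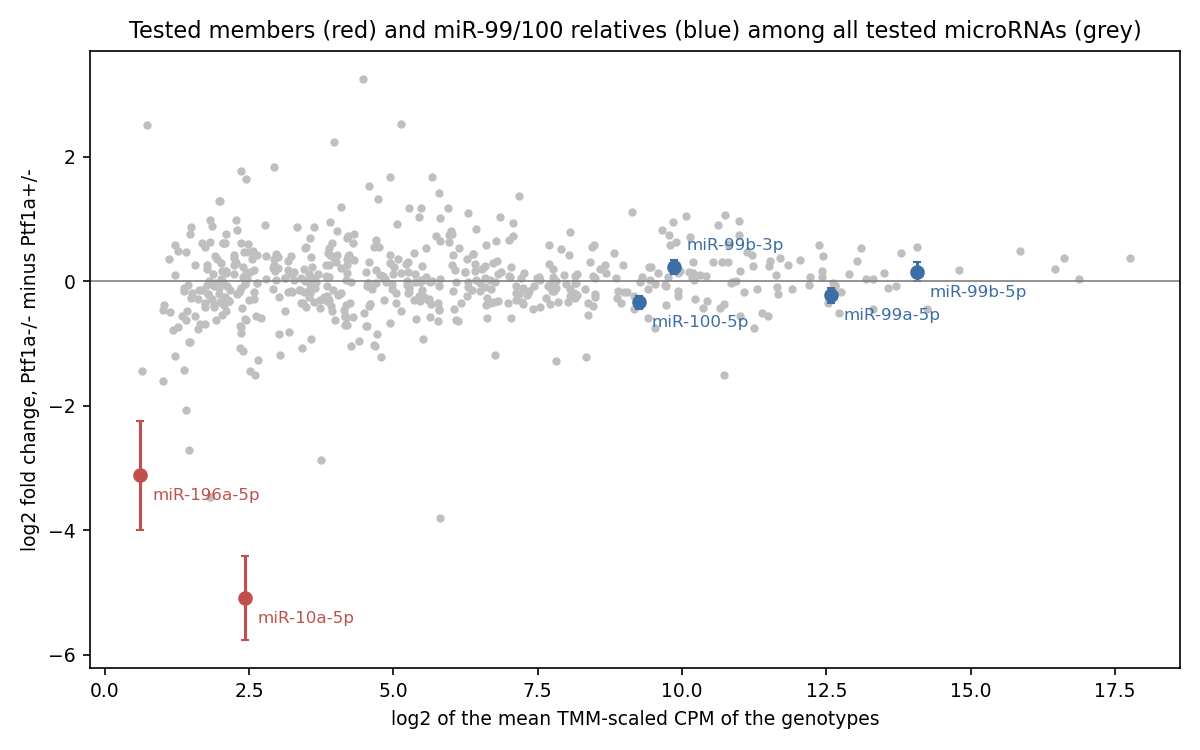
Fitted log2 fold change (Ptf1a-/- minus Ptf1a+/-, y axis) against the log2 mean level in TMM-scaled CPM (x axis) for 584 tested miRNAs; bars are SE. miR-10a-5p (-5.08) and miR-196a-5p (-3.12) lie at the low-count end, and the miR-99/100 arms lie at high levels between -0.34 and 0.23.

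By the distance between centred profiles of log2(CPM + 2) over the 4 libraries, the miRNAs most like miR-10a-5p were miR-673-5p, miR-200b-3p, miR-190b-3p, miR-190b-5p and miR-1934-5p (root-mean-square distance 0.307, 0.366, 0.424, 0.572 and 0.587). miR-200b-3p, an epithelial miRNA, had 25 and 31 counts against 1 and 3. miR-190b-5p had 429 and 466 against 30 and 23, and its partner arm 25 and 31 against 3 and 1. miR-673-5p had 96 and 107 against 15 and 8, and miR-1934-5p 18 and 23 against 3 and 2. None of these comes from the miRNA genes annotated inside the Hox clusters, and the measure covers 4 libraries only. The Ptf1a-/- levels of miR-10a-5p, 0 and 0.616 CPM, lie under the added 2 CPM, which compresses its profile. The 5 nearest had smaller fitted log2 fold changes, -2.71 to -3.81 against -5.08. For miR-10b-5p the nearest were miR-3085-3p, miR-673-3p, miR-199a-5p, miR-346-5p and miR-181b-1-3p (distances 0.0622 to 0.0915). The level of miR-10b-5p in Ptf1a+/-, near the added 2 CPM, flattens its profile, so these are miRNAs with much smaller fold changes (-0.64 to -1.05).

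**Figure D4:**
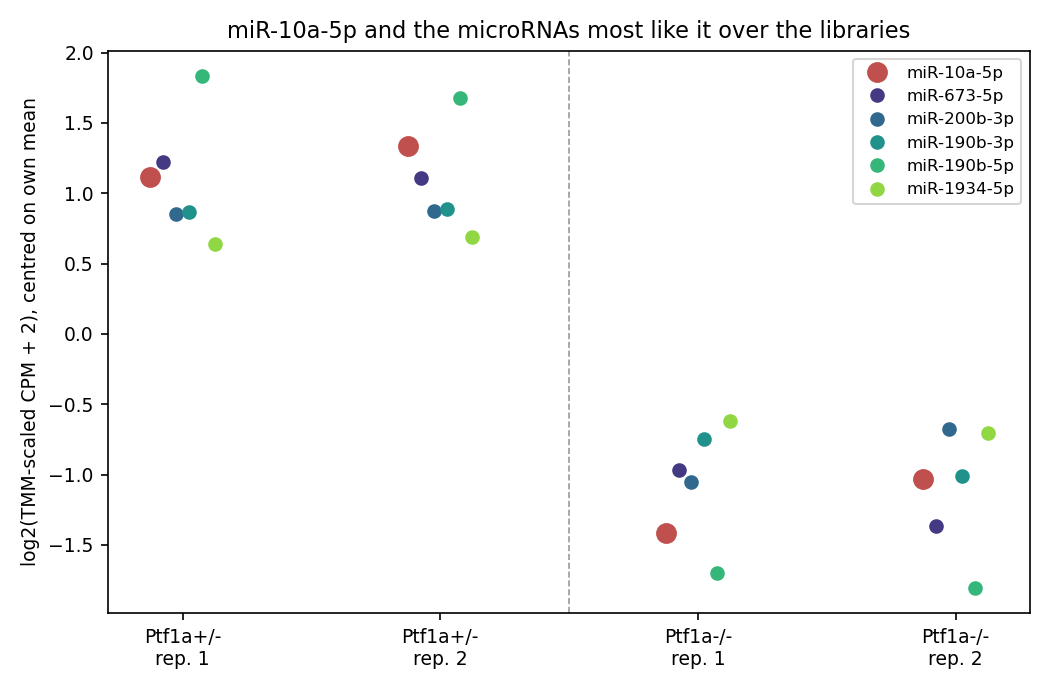
Centred log2(TMM-scaled CPM + 2) in each library for miR-10a-5p (large red points) and the 5 miRNAs most like it; points are offset sideways for legibility and the dashed line separates the genotypes. All 6 lie above their own mean in both Ptf1a+/- libraries and below it in both Ptf1a-/- libraries. The 5 were picked for nearness to miR-10a-5p over these same libraries, so their shared pattern follows from the choice.

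Markers of other tissue that a dissected retina can carry were read in the same libraries, because miR-10 and miR-196 are known from trunk tissue and miR-10 is also known in vessels. In bulk samples fewer cells of a type and less RNA per cell cannot be told apart. The 4 vessel and mural cell miRNAs summed to 593 and 614 CPM in Ptf1a+/- and 352 and 587 CPM in Ptf1a-/- (ratio 0.760), and none of 3 tested passed. miR-126a-3p, the endothelial miRNA, had 2114 and 2651 counts against 1256 and 1771, and its partner arm miR-126a-5p 50 and 72 against 56 and 69 (ratio 1.23). miR-143-3p, a smooth muscle miRNA, had 131 and 161 counts against 51 and 67 (ratio 0.486; -1.03 ± 0.25 on the log2 scale, adjusted p = 0.0637 in the edgeR fit), and it was called lower on the deposited CPM and without either Ptf1a-/- replicate. miR-145a-5p, from the same primary transcript, had 1 count in all. The 3 mesenchyme miRNAs summed to 58.4 and 52.7 CPM against 42.3 and 42.8 CPM (ratio 0.769). Of these, miR-199a-5p fell (-1.05 ± 0.22, adjusted p = 0.0430 in the edgeR fit), while its partner arm miR-199a-3p had 115.5 and 130 counts against 118 and 92. Their part in the values of the Hox-cluster miRNAs was not tested.

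Of 7 listed lens and surface epithelium miRNAs 3 were tested and miR-200b-3p fell (-3.47 ± 0.49, adjusted p = 0.0124 in the edgeR fit). The list summed to 308 and 295 CPM against 230 and 302 CPM, so its sum overlapped between genotypes. The other tested arms did not pass. miR-184-3p stood at 198 and 195 CPM against 102 and 189 CPM. miR-203-3p went the other way, at 100 and 90.6 CPM against 124 and 111 CPM (ratio 1.24). miR-200a-3p had 4 and 4 counts against 3 and 1, miR-200c-3p 7 and 7 against 7 and 4, and miR-141-3p and miR-429-3p 1 count each in all. In the pigment epithelium list of 3, miR-204-3p fell (-0.54 ± 0.12, adjusted p = 0.0436 in the edgeR fit), with a list sum of 3689 and 3728 CPM against 3203 and 3565 CPM. Its partner arm miR-204-5p, most of that sum, did not pass (-0.09 ± 0.11, adjusted p = 0.686 in the edgeR fit). Nor did miR-211-5p (-0.35 ± 0.29, adjusted p = 0.509). The blood list, at 79.1 and 74.1 against 67.0 and 98.8 CPM, had 0 of 2 tested miRNAs passing. Most of its counts were of miR-486a-5p, with 282.5 and 328.5 in Ptf1a+/- against 245.5 and 311 in Ptf1a-/-. miR-142a-3p had 22 and 17 against 13 and 8, and miR-144-3p 2 and 2 against 0 and 0. The red cell miRNA miR-451a had at most 1 count in a library. The striated muscle list stood at 48.5 and 51.1 CPM in Ptf1a+/- and 65.0 and 70.3 CPM in Ptf1a-/-, with 0 of 3 passing. The retinal list stood at 340223 and 336990 CPM in Ptf1a+/- and 363414 and 517788 CPM in Ptf1a-/-, and none of its 5 miRNAs passed in the main fit. miR-96-5p was called lower with library size only (-0.54) and on the deposited CPM (-0.70). Those scalings put the median of all tested miRNAs at -0.18 and -0.33. Over all lists 3 of 21 tested markers passed, all of them lower in Ptf1a-/-. Among all tested miRNAs 3.60% were called lower and 9.76% in either direction. No marker passed with the Ptf1a+/- pair summed or without Ptf1a+/- replicate 2. Only miR-200b-3p passed with DESeq2 or without Ptf1a+/- replicate 1. More markers passed without Ptf1a-/- replicate 1 or 2, where the spread is estimated from the Ptf1a+/- pair alone. The summed ratio of the marker lists ranged from 0.760 to 1.35. A list sum mostly reflects its most abundant arms, and miR-200b-3p stood at 0.0860 in a list at 0.874. The summed members stood at 0.0569, or 0.106 without miR-10a-5p. Since the members were chosen on this contrast, nothing is read from the gap between these ratios, and it was not tested.

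**Figure D5:**
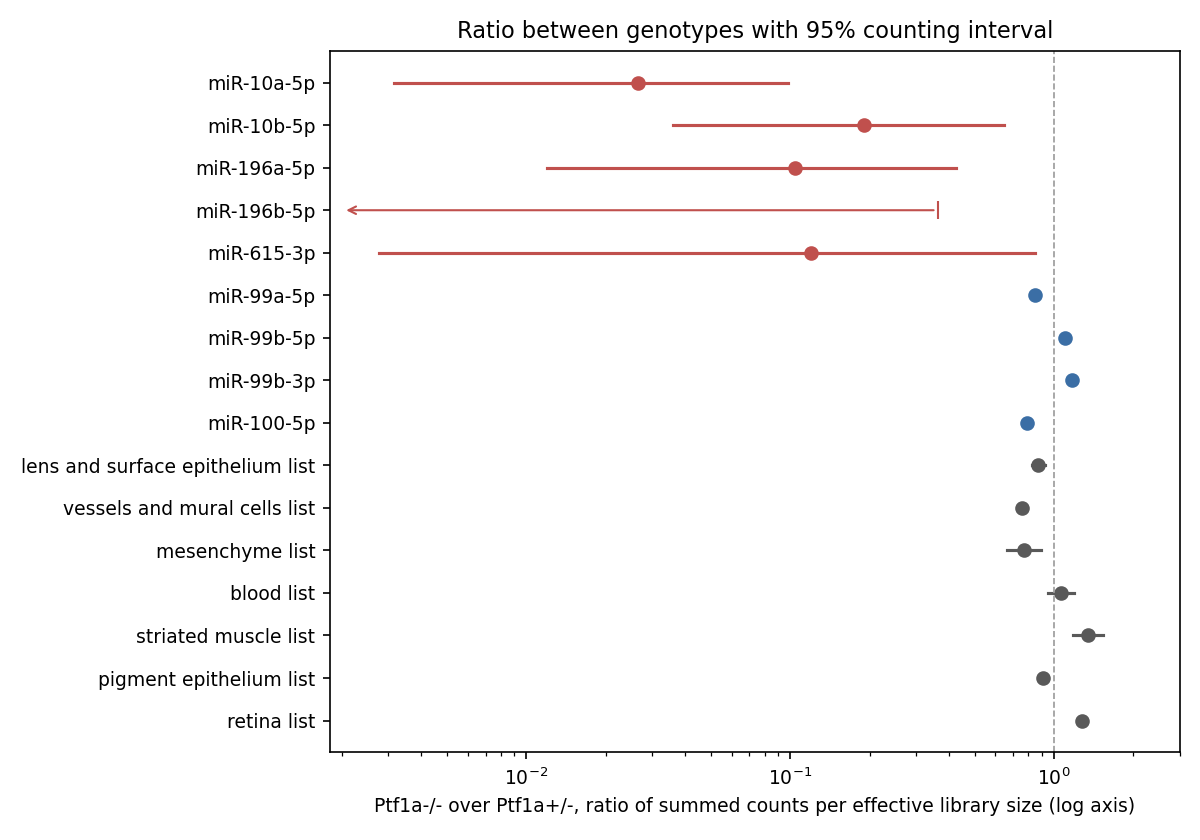
Ratio of summed counts per effective library size, Ptf1a-/- over Ptf1a+/- (log axis), with exact 95% counting intervals; red, Hox-cluster arms; blue, the 4 tested miR-99/100 arms (miR-99a-3p and miR-100-3p, with 6 and 1 counts in Ptf1a+/-, are not drawn); grey, sums of the marker lists; the arrow marks the upper limit for miR-196b-5p, with 0 counts in Ptf1a-/-. The red points lie from 0.0265 to 0.190, and the blue and grey points between 0.760 and 1.35. The red arms other than miR-615-3p were chosen on this contrast, so the gap is not read as a result.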

How the data were processed

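Small RNA of 18 to 30 nt from retina RNA was made into libraries with a New England Biolabs kit and size-selected again as cDNA, per the labels' protocols. Per the submitters' processing notes, bcl2fastq 2.20.0.422 split the reads by library. An aligner, a counter and a genome build were not given in the sources used here. Raw values as deposited are estimated counts per mature miRNA (5.73 to 7.84% of values per library are not whole), which were then rounded to whole numbers. The deposited CPM table divides them by a library total of which 16.3 to 27.9% lies outside the listed counts. This share was larger for Ptf1a-/- (22.7%, 27.9%) than for Ptf1a+/- (17.0%, 16.3%). Dividing by that total therefore lowers the Ptf1a-/- values relative to the other genotype. The deposited sequence table is written against miRBase22, per the file headers. No molecular identifiers are described, so reads are not independent molecules.

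edgeR 4.0.16 in R 4.3.3 (quasi-likelihood F test, TMM, genotype only, legacy=FALSE) was fitted to 584 miRNAs (minimum 10 counts in 2 of the 4 libraries), with Benjamini-Hochberg adjustment over all of them and a threshold of 0.05. The script was tested on simulated data. Alternatives were library size only, DESeq2 1.42.0, other filters, limma 3.58.1 on the deposited CPM with a pseudocount of 1, leaving out each library, a replicate block and the Ptf1a+/- pair summed. Members, lists, markers and the naming rule (all members, the listed relatives and markers, and the 5 nearest profiles, prior count 2) were chosen with earlier results of these data known. Positions and sequences come from GENCODE M21 and RefSeq (GRCm38.p6), matched by name.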

Additional observations from a re-analysis of the deposited data

How the results depend on the processing

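miR-10a-5p and miR-196a-5p kept a negative log2 fold change under all 11 alternatives. Both moved by more than their SE on the deposited CPM, to -3.12 and -1.53, where the pseudocount of 1 compresses low levels. Leaving out 1 library gave -8.46 to -4.04 for miR-10a-5p and -6.49 to -2.07 for miR-196a-5p. These were the fits without Ptf1a-/- replicate 2, the only one of the Ptf1a-/- pair with counts of these arms, and without Ptf1a-/- replicate 1. The ratio of mean levels of the summed miR-10 5p arms was 0.0584, 0.0476 with the listed library total and 0.0442 on the deposited CPM. For the miR-196 5p arms these were 0.0701, 0.0546 and 0.0513. The Ptf1a-/- pair spreads about as widely as its own mean (0.745 ± 0.688 and 0.308 ± 0.435 CPM, mean ± SD). A comparison with that spread therefore cannot show that the ratios are stable.

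Of all miRNAs, 36 were higher and 21 lower in Ptf1a-/-. These counts were 42 and 17 with DESeq2, and 35 and 19 with a minimum of 10 counts in at least 1 library. They moved further with other settings: 4 and 12 with library size only, 12 and 9 with no filter on low counts, and 1 and 27 on the deposited CPM. They were 5 and 7 with the replicate block, and 0 and 1 with the Ptf1a+/- pair summed. Leaving out 1 library gave 0 to 142 higher and 1 to 132 lower: 0 and 5 without Ptf1a+/- replicate 1, 0 and 1 without Ptf1a+/- replicate 2, 140 and 123 without Ptf1a-/- replicate 1, and 142 and 132 without Ptf1a-/- replicate 2, where the lone library is assumed to vary like the other pair. miRNA sets were kept as in the full fit there. On the deposited CPM the median log2 fold change of all tested miRNAs was -0.33. The counts of 1 and 27 on that scale, and its call of miR-196a-5p, include this shift. Same-numbered libraries did not deviate together (r = 0.0465 across miRNAs). The Ptf1a+/- pair lay close together (chi-square per degree of freedom 1.85), so a low r cannot show whether libraries were paired. The labels do not say that the numbers pair libraries, so they are not taken as pairs.

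The miR-99/100 arms past the threshold numbered 0, and 0 to 4 with 1 library left out. miR-99b-5p turned to -0.043 with library size only and to -0.20 on the deposited CPM, and miR-99b-3p to -0.11 there. With 0 to 2 counts per arm in a Ptf1a-/- library, depth limits every ratio of the members.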
